A study of Mus musculus with 3 samples.

Results

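Inflammatory and regulatory cytokines are described here as a set of 10 genes of the 55357 in the deposited matrices, taken by symbol: Tnf, Il6, Il1a, Il1b, Il18, Il10, Il4, Il13, Ifng and Tgfb1. Single-cell RNA-seq was run on livers of male wild-type C57BL/6 mice that were 8 weeks old when they entered 3 groups, with the cells of 2 mice pooled into 1 library per group. The control (CON) mice were left untreated. The high-fat diet (HFD) mice, named the MASH group by the submitters (metabolic dysfunction-associated steatohepatitis), ate a diet with 60% of its calories from fat for 4 months. The CCl4 mice ate chow for 3 months and then received 0.1 mL of 10% carbon tetrachloride, a hepatotoxin used to induce liver fibrosis, into the peritoneum 2 times per week for 4 weeks. Livers were perfused with collagenase, and hepatocytes and non-parenchymal cells were mixed 1:1 before capture, so class shares do not give the composition of the organ. With 1 library per group there is no replicate, no test across mice was possible, and mice, library and treatment cannot be told apart. Every interval given with a value is a 95% interval that covers counting error only.

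The libraries held 11245 (control), 12984 (HFD) and 12761 (CCl4) barcodes with median depths of 2939, 2336 and 2173 UMIs, and 36945 cells passed the filters. A UMI marks 1 captured mRNA molecule, and levels are in CPM, the count of a gene scaled by the total UMIs of the same cell class in the same library. 137 barcode sequences occurred in more than 1 library. Cells were clustered without the 10 cytokine genes, and clusters were named as "-like" from marker lists, so every class name below stands for cells like that type. Depth was lower in HFD and CCl4, and RNA of hepatocytes was more abundant in every other class there. In B cells the summed CPM of 10 hepatocyte markers was 31304 in control, 73158 in HFD and 119398 in CCl4, and in basophils it was 18815, 67663 and 103597. Both shifts move with the library and their part in the differences between libraries was not tested. Over all genes with at least 20 UMIs, the median ratio of (CPM + 5) to control was below 1 in most of the classes compared. It was 0.751 (HFD) and 0.655 (CCl4) in basophils and 0.885 and 0.842 in neutrophils. These medians include hepatocyte genes and use (CPM + 5), whereas cytokine ratios use CPM unless stated. The medians are thus only a rough reference for a cytokine ratio. The hepatocyte, T cell and NK cell classes each held a cluster with more markers of another class than of their own among its 10 leading genes, so their values are set side by side without a ratio.

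As background, these cytokines fall into groups with distinct roles. Tnf, Il6, Il1a and Il1b are early inflammatory cytokines that act on endothelium, hepatocytes and leukocytes and drive the acute phase response of the liver. Il1b and Il18 are made as precursors that need cleavage by caspase-1 within an inflammasome, whereas Il1a acts without it as an alarm signal from damaged cells. Il4 and Il13 are the type 2 cytokines that share the receptor chain Il4ra. Ifng is the macrophage-activating product of NK cells and T cells. Il10 restrains myeloid cells, and Tgfb1 is held in a latent complex until activated and is the best known fibrogenic factor of the liver.

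In the GRCm38 annotation (GENCODE M21), Il4 (chromosome 11, 53602982 to 53618669, minus strand) and Il13 (chromosome 11, 53631324 to 53634702, minus strand) lie 12.655 kb apart, with 0 protein-coding genes between them. Il1a (chromosome 2, 129299610 to 129309972) and Il1b (chromosome 2, 129364570 to 129371139), both on the minus strand, lie 54.598 kb apart, again with 0 coding genes between. Il6 lies on chromosome 5 from 30013114 to 30019981 and Il10 on chromosome 1 from 131019845 to 131024974, both on the plus strand. Tnf is on chromosome 17 from 35199381 to 35202007 on the minus strand. Ifng is on chromosome 10 from 118441046 to 118445892, Tgfb1 on chromosome 7 from 25687002 to 25705077 and Il18 on chromosome 9 from 50554827 to 50581840, all on the plus strand. Il1b overlaps the antisense gene Il1bos, Il18 overlaps Bco2 and Tex12 on the other strand, Il1a overlaps Gm14023 on the other strand, and Ifng overlaps Gm49751 on its own strand. These positions locate the genes in a reference and are not the build used for counting, which the sources name differently.

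The 250 bases before the RefSeq start (GRCm38.p6) are printed for 4 cytokines that were detected in the same basophils. Summed over the libraries, basophils held Il6, Il4 and Il13 at their highest CPM of any class. Il1b was at rank 3 there, at 1516 CPM against 1899 in neutrophils and 1531 in Kupffer cells. In every library, Il1b was lower in basophils than in neutrophils. The 4 stretches are Il6 at chr5:30012864-30013113 (plus strand), Il4 at chr11:53618666-53618915 (minus), Il13 at chr11:53634703-53634952 (minus) and Il1b at chr2:129371140-129371389 (minus), each written 5′ to 3′ along the gene's strand. Tnf, with 29 UMIs in basophils, was also near its highest level there and is not printed. Capitals mark matches, on either strand, to 4 short patterns: the kappa B pattern (GGGA, any base N, then TTTCC), the AP-1 pattern TGANTCA, the NFAT core GGAAA and the TATA pattern TATAAA.

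Il6: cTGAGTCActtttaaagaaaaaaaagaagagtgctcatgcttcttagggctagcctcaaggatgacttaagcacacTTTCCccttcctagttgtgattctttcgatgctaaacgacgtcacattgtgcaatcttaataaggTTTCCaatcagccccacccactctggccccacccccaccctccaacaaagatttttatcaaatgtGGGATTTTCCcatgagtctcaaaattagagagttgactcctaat

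Il4: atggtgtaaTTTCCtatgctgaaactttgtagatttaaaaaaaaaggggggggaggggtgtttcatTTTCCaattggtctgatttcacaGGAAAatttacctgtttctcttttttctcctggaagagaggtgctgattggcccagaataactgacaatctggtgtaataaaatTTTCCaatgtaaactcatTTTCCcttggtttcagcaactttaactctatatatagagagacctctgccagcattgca

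Il13: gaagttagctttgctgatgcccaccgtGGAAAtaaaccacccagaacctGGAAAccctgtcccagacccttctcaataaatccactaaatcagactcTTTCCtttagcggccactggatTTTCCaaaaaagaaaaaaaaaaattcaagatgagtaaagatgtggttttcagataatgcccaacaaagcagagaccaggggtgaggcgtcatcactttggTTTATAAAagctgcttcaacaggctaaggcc

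Il1b: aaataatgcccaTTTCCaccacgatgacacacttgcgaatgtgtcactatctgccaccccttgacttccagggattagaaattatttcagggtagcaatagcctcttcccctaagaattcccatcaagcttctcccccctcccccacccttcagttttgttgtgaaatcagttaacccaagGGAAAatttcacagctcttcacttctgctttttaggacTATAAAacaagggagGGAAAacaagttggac

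The Il6 stretch held 1 kappa B match, 44 to 35 bases before the start, and 1 AP-1 match. Of 32851 RefSeq promoters of this length, 0.356% held the kappa B pattern, 6.75% the AP-1 pattern, 55.6% the NFAT core and 12.4% the TATA pattern. The NFAT core occurred 5 times before Il4, 4 times before Il13, 3 times before Il6, 1 of them inside the kappa B match, and 3 times before Il1b. The TATA pattern occurred 2 overlapping times before Il13 and 1 time before Il1b. The NFAT core is so short that most promoters hold it, and a match describes letters, not binding. No promoter entry was matched for Il10.

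Summed over the 3 libraries, the cytokines ranged from 80 UMIs in 42 cells (Il13) to 17320 UMIs in 3557 cells (Il1b). Tgfb1 had 3370 UMIs, Ifng 2496, Il18 1948, Il6 1256, Tnf 722, Il10 406, Il1a 367 and Il4 303. Basophils, only 92, 31 and 12 cells of the control, HFD and CCl4 libraries, held 78.3% of all Il6 UMIs, 61.4% of Il4 and 86.3% of Il13. Neutrophils held 35.9% of Il1b, Kupffer cells 37.3% of Il1a, nonclassical monocytes 35.7% of Il10 and T cells 51.5% of Ifng. Endothelial cells held nearly as much of Il1a (36.8%), and more than Kupffer cells in HFD (63 against 25 UMIs) and CCl4 (23 against 1). Hepatocytes, by far the most numerous class, held 59.5% of Il18, although in CCl4 they held only 28.7% when each library was clustered on its own. Tnf and Tgfb1 were the most spread out, with 20.8% and 16.9% of their UMIs in the myeloid progenitor class. In 17 of 30 combinations of cytokine and library, the class with most UMIs was the same as over all libraries together.

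**Figure D1:**
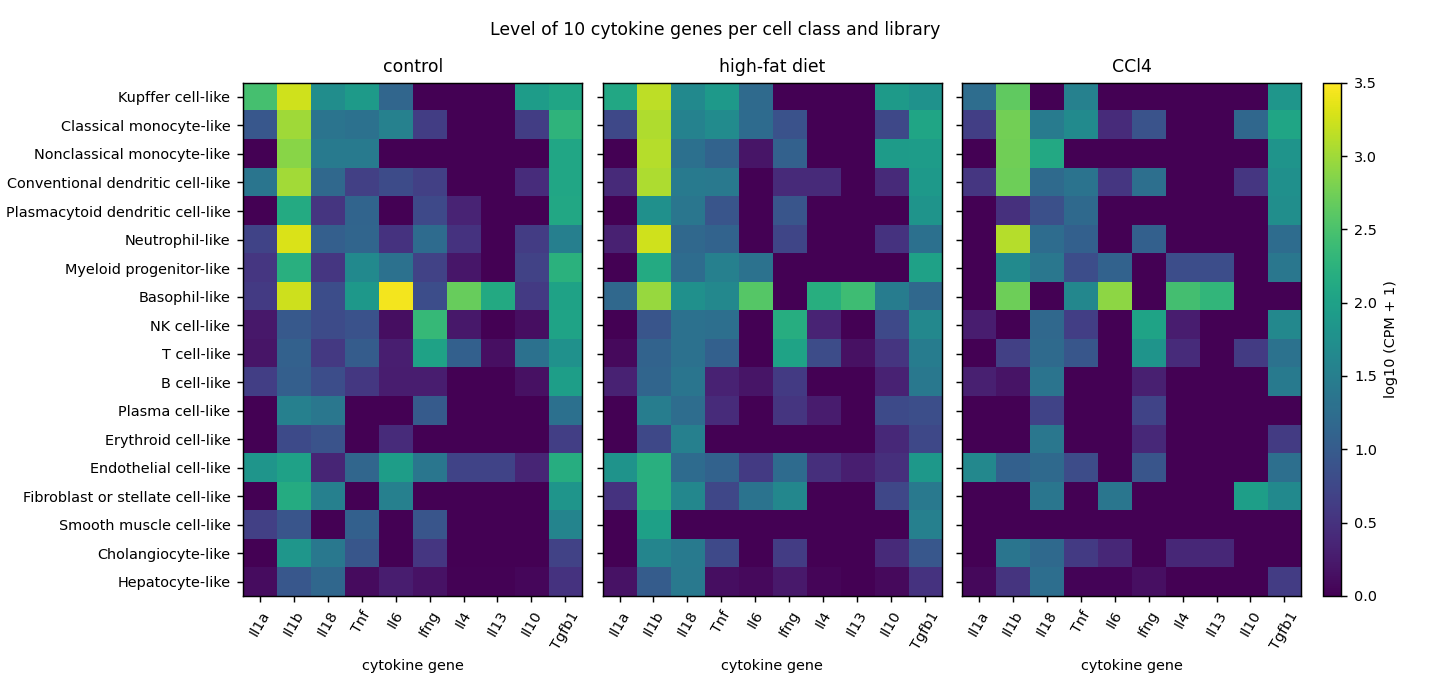
Level of the 10 cytokines in 18 cell classes, with 1 panel per library (control, HFD, CCl4); colour is log10(CPM + 1) on a common scale. Il6, Il4 and Il13 are brightest in basophils in every library, Il1b is bright across the myeloid classes, and Tgfb1 and Il18 are spread over most classes.

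Basophils are rare granulocytes that release histamine and type 2 cytokines and are armed by IgE through Fcer1a. The cells so named had 10 of 10 basophil markers above all other cells in control and HFD and 9 of 10 in CCl4. Mcpt8, the basophil protease, was detected in 50% of them in control but in 19.4% in HFD and 8.33% in CCl4. The class was 1 cluster in all 3 libraries.

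Il6, the inducer of hepatic acute phase proteins, had its highest level of any class in basophils in every library. It had 936 UMIs in control basophils, 27 in HFD and 20 in CCl4. The levels were 2712 (2541 to 2892), 381 (251 to 555) and 807 (493 to 1247) CPM. Control stood far above the other libraries and CCl4 above HFD. The ratio of HFD to control was 0.141 (0.0921 to 0.206), that of CCl4 to control 0.298 (0.181 to 0.462) and that of CCl4 to HFD 2.12 (1.13 to 3.92). Counted as UMIs per cell, which does not correct for depth, the first 2 were 0.0856 and 0.164. At least 1 Il6 UMI was seen in 85 of 92 control basophils (92.4%), 16 of 31 in HFD (51.6%) and 9 of 12 in CCl4 (75%). After each cell was thinned to 1000 UMIs these shares were 80.6%, 29.4% and 54.8%, in the same order. Hepatocytes, which stand for free RNA, had an Il6 UMI in 0.302%, 0.0157% and 0.0284% of cells. Control basophils with Il6 had a median of 9 UMIs, 42 of them had 10 or more, and the highest had 41. Il6 CPM in basophils was 650, 222 and 3433 times that of all other cells in the control, HFD and CCl4 libraries, and 1011 (control) and 5797 (CCl4) times without the cells of the highest 8% of doublet scores. Those other cells together had 4.17, 1.72 and 0.235 CPM of Il6.

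Il4, which drives type 2 T cell responses and B cell class switching, had 168, 11 and 7 UMIs in basophils of control, HFD and CCl4. The levels were 487 (416 to 566), 155 (77.5 to 278) and 283 (114 to 582) CPM, in 44.6%, 22.6% and 41.7% of the cells. HFD was below control, with a ratio of 0.319 (0.156 to 0.586). The ratio of CCl4 to control, 0.581 (0.23 to 1.22), had an interval that includes 1, as did that of CCl4 to HFD at 1.82 (0.598 to 5.14). With cells of at least 2000 UMIs alone these 2 ratios were 0.126 and 0.423, and as UMIs per cell Il4 was 0.194 (HFD) and 0.319 (CCl4) of control. Il4 was unevenly held: the 5 highest control basophils carried 51.2% of the control basophil UMIs and 1 cell had 37.

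Il13, a driver of mucus, smooth muscle and fibrotic responses, had a CPM above control in HFD, where that of its neighbour Il4 lay below. It had 46, 18 and 5 UMIs in 24 of 92, 7 of 31 and 3 of 12 basophils, or 133 (97.6 to 178), 254 (151 to 402) and 202 (65.6 to 471) CPM. The share of positive cells was thus not higher in HFD than in control. Of the 18 HFD UMIs, 16 lay in 5 cells and 8 in 1 cell. The ratio of HFD to control was 1.91 (1.04 to 3.35), which became 1.16 as UMIs per cell. CCl4 to control was 1.51 (0.47 to 3.8), and 0.833 as UMIs per cell, so no direction can be read for it. The difference between the Il4 and the Il13 ratios was not tested.

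Il1b was also abundant in basophils, at 1710 (1574 to 1853), 918 (708 to 1170) and 525 (279 to 898) CPM from 590, 65 and 13 UMIs. The ratios to control were 0.537 (0.409 to 0.694) for HFD and 0.307 (0.162 to 0.529) for CCl4. The share of cells with Il1b was 59.8%, 48.4% and 58.3%, with overlapping intervals. Of the 55 control basophils with Il1b, 9 also held 3 or more of 10 neutrophil markers, against 1 of the other 37, and none did in HFD and CCl4. Tnf was low, with 25, 3 and 1 UMIs (72.4, 42.4 and 40.4 CPM). Tgfb1 was seen at 35 UMIs in control basophils (101 CPM), 1 in HFD and 0 in CCl4, where 3 UMIs, the limit that a count of 0 allows, would be more than the control level.

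The basophil cytokines were seen together in single cells. In control, 38 of the 41 basophils with Il4 also had Il6, as did all 24 with Il13, all 13 with Tnf and 53 of the 55 with Il1b. Il4 and Il13 were both detected in 17 control cells. Of the 5 cytokines Il4, Il13, Il6, Il1b and Tnf, 33 control basophils held 3, 10 held 4 and 2 held all 5, while 3 held none. In HFD, 2 of the 7 cells with Il4 and 4 of the 7 with Il13 had Il6, and no cell held 4 or 5 of these genes. In CCl4, 1 of 12 cells held 4. Since Il6 was found in most control basophils, joint detection with it was frequent for any gene, and it grows with the depth of a cell.

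**Figure D2:**
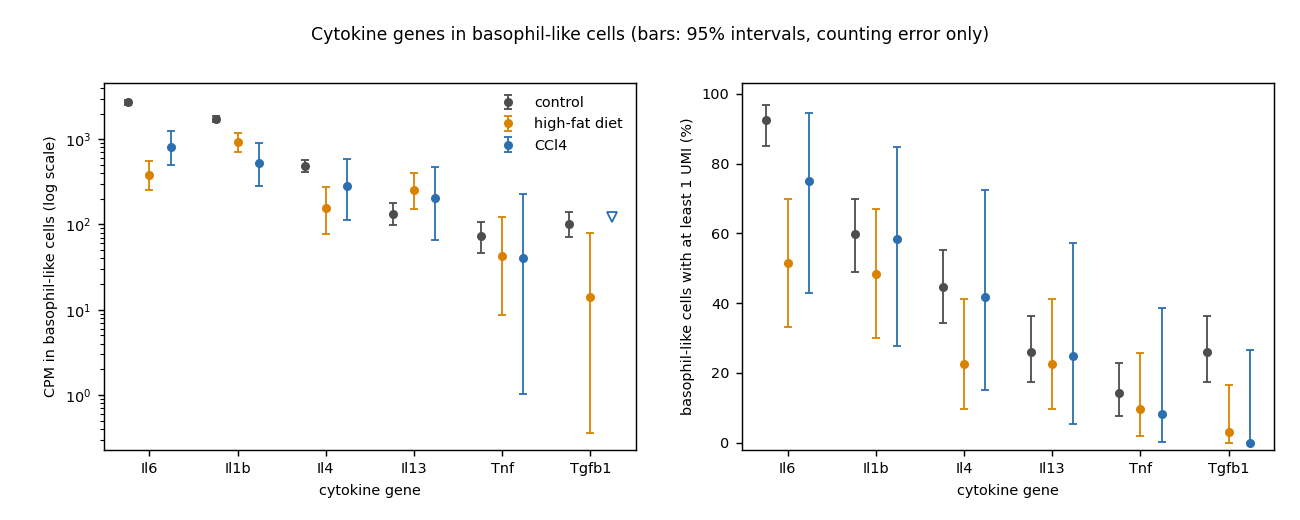
Levels of 6 cytokines in basophils by library, as CPM on a log axis (left) and as percent of cells with at least 1 UMI (right); points are single libraries, bars are 95% counting intervals and the open triangle gives the limit that a count of 0 allows. Il6 lies at 2712, 381 and 807 CPM in control, HFD and CCl4, whereas Il13 lies at 133, 254 and 202, from only 46, 18 and 5 UMIs.

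Other genes of the same pathways in basophils, from lists of cytokines, processing factors, inhibitors, receptors and transcription factors, included several with a high level in all 3 libraries. Osm, a cytokine of the Il6 family, was the highest of 27 other cytokines, at 1750, 1511 and 1332 CPM in control, HFD and CCl4. It thus varied less between libraries than Il6. Of 12 processing and release genes, the inflammasome sensor Nlrp3 was highest in control (971 CPM, against 494 in HFD and 444 in CCl4) and the protease Furin in HFD and CCl4 (635 and 767 CPM).

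Il6 outside basophils was scarce. Classical monocytes, the Ly6c2-positive precursors of macrophages, had 30 UMIs in 21 control cells, 34 in 24 HFD cells and 1 in CCl4, or 33.5, 15.8 and 1.73 CPM. Of the Il6-positive control and HFD monocytes, 0 held 3 basophil markers. HFD was at 0.473 (0.281 to 0.80) and CCl4 at 0.0517 (0.00127 to 0.311) of control, and most control monocytes were in cluster 8, most of the others in cluster 24. Endothelial cells gave 65 Il6 UMIs in control, all of them in 5 cells. All 5 held 3 or more of 10 basophil markers, against 2 of the other 151, so this signal moved with basophil RNA in the same barcodes. HFD endothelial cells had 3 Il6 UMIs and CCl4 had 0. The limit of that 0 is 15.9-fold below control, a bound that takes UMIs as independent although the control UMIs lay in 5 cells. Progenitors had 19.2, 20.0 and 11.6 CPM and fibroblasts, a known source of Il6, 3, 9 and 1 UMIs.

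Il1b, the pyrogenic product of the inflammasome, had the most UMIs of the 10 genes and was found in every myeloid class. Neutrophils had 4389, 1580 and 241 UMIs, or 2011 (1952 to 2071), 1751 (1666 to 1840) and 1300 (1141 to 1475) CPM in control, HFD and CCl4. Between 78.9% and 82.0% of neutrophils were positive in each library. Kupffer cells, the resident liver macrophages, had 1761 (1629 to 1900), 1422 (1261 to 1597) and 440 (287 to 644) CPM. Classical monocytes had 986 (922 to 1053), 1215 (1169 to 1262) and 568 (508 to 633) CPM. Nonclassical monocytes, which patrol the vessel wall, had 748 (568 to 967), 1290 (1238 to 1345) and 543 (316 to 869), and conventional dendritic cells 1024 (942 to 1112), 1174 (1092 to 1262) and 536 (466 to 614). CCl4 was the lowest library in all 5 classes, whereas HFD and control changed order between them.

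The ratio of CCl4 to HFD was 0.743 (0.646 to 0.851) in neutrophils, 0.468 (0.416 to 0.525) in classical monocytes, 0.42 (0.245 to 0.675) in nonclassical monocytes, 0.457 (0.39 to 0.533) in dendritic cells and 0.309 (0.198 to 0.462) in Kupffer cells. The median ratio of all genes in the same contrast was between 0.747 (nonclassical monocytes) and 0.986 (neutrophils). HFD to control was above 1 in classical monocytes at 1.23 (1.14 to 1.33), in nonclassical monocytes at 1.72 (1.33 to 2.28) and in dendritic cells at 1.15 (1.03 to 1.28). It was below 1 in neutrophils, at 0.871 (0.822 to 0.923), and in Kupffer cells, at 0.808 (0.70 to 0.929). The neutrophil ratio turned to 1.03 (0.967 to 1.11) when only cells of at least 2000 UMIs were kept. CCl4 to control in neutrophils was 0.647 (0.566 to 0.736), and 0.375 as UMIs per cell. The nonclassical class rests on 23 control and 15 CCl4 cells against 699 in HFD.

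Lower levels of Il1b occurred in cells that are not known for it. Endothelial cells had 99.1, 158 and 10.95 CPM, where 6 of the 18 positive control cells and 2 of the 44 in HFD held 3 or more neutrophil markers. Plasmacytoid dendritic cells had 113 UMIs in only 9 control cells, 7 of which held 3 or more neutrophil markers, against 6 of the other 185. B cells had 10.6, 12.9 and 0.51 CPM, T cells 11.1, 11.9 and 3.55, and hepatocytes 7.95, 9.60 and 2.34 CPM. In each of these last 3 classes CCl4 was the lowest library, as in the myeloid cells. Of 159 control hepatocytes with Il1b, 53 held 3 or more neutrophil markers, against 184 of the other 4804.

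**Figure D3:**
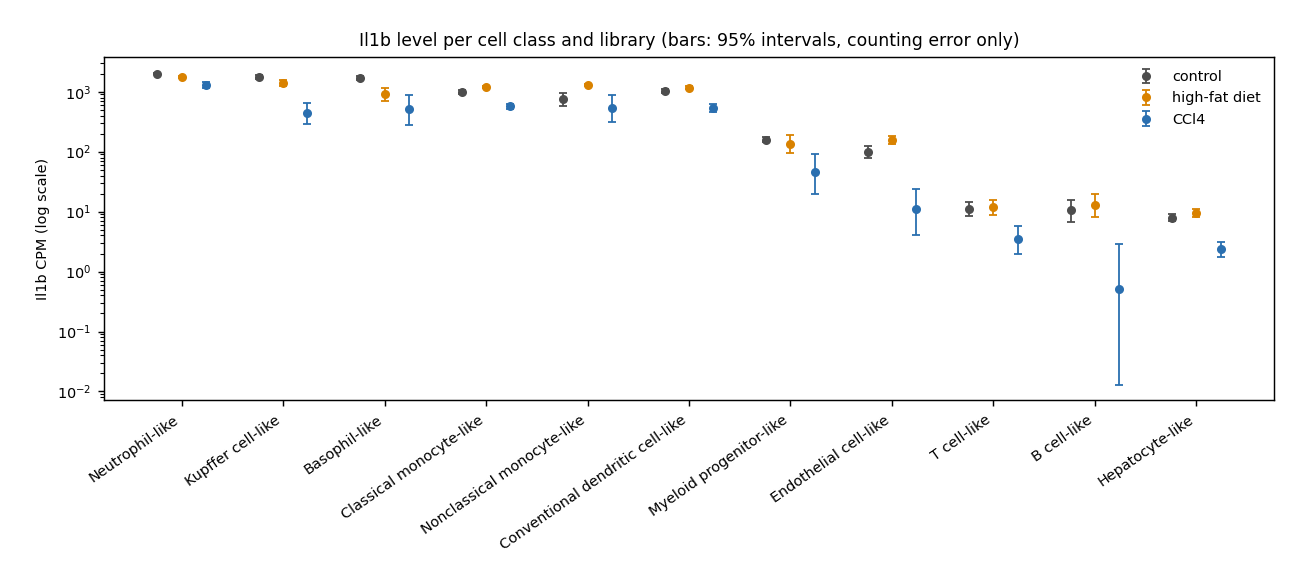
Il1b in 11 cell classes and 3 libraries, as CPM on a log axis; points are single libraries and bars are 95% counting intervals. Neutrophils run from 2011 (control) to 1300 (CCl4), and every class shown has CCl4 below HFD.

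Il1a, the alarm form of Il1, lay in fewer classes than its neighbour Il1b. Kupffer cells had 111, 25 and 1 UMIs, or 296 (244 to 357), 125 (81.0 to 185) and 16.9 (0.428 to 94.2) CPM, in 35, 14 and 1 cells. In these counts control was the highest and CCl4 the lowest, with ratios of 0.423 (0.262 to 0.657) for HFD to control and 0.0571 (0.00143 to 0.325) for CCl4 to control. The HFD ratio depended on how the Kupffer cells were drawn: it was 1.06 (0.659 to 1.64) when the cytokines were allowed among the clustering genes, 0.147 at a finer resolution, 0.1297 when each library was clustered on its own and 0.219 as UMIs per cell. The CCl4 ratio was 0.1349 in the first case and 0.0313 as UMIs per cell. Of the Il1a-positive Kupffer cells, 31 of 35 in control and 14 of 14 in HFD also had Il1b. Endothelial cells were the other class with Il1a, at 65.6 (48.5 to 86.7), 61.8 (47.5 to 79.1) and 42.0 (26.6 to 63.0) CPM from 49, 63 and 23 UMIs. There the libraries overlapped, with ratios to control of 0.942 (0.638 to 1.4) in HFD and 0.639 (0.372 to 1.07) in CCl4. Dendritic cells had 12 UMIs in control and 1 in each of the other libraries.

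The Kupffer cell class itself held 73, 75 and 21 cells, with 11, 11 and 9 of 11 markers above other cells, and Clec4f, its defining lectin, in 17.8%, 30.7% and 9.52% of cells. Its Nlrp3 level was 307 CPM in control and 215 in HFD. In neutrophils, Thbs1, an activator of latent Tgfb1, had 1102, 134 and 345 CPM. Among other pathway genes in neutrophils, compared between HFD and control as (CPM + 5) ratios, 3 of 9 processing genes tested (Nlrp3, Gsdmd and Thbs1), 3 of 8 inhibitors (Il1rn, Tnfaip3 and Socs1), 3 of 17 receptors (Il1r1, Il2rg and Tgfbr2) and 5 of 13 transcription factors (Eomes, Gata3, Stat4, Nfkb1 and Irf4, of which the first 3 are known from lymphocytes) were at or below 0.5. Over all genes tested in that class, 9.60% were at or below 0.5. Among the 10 cytokines, 5 could be tested in neutrophils and 1, Ifng, was at or below 0.5, from 34 control UMIs. Of the 15 control neutrophils with Ifng, 9 held 3 or more NK cell markers, against 37 of the other 600, and 6 held 3 or more T cell markers, against 55. The part of these markers in the Ifng and transcription factor ratios was not tested.

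Tnf, the prototype inflammatory cytokine, was below 100 CPM in every class. Beside the control basophils, its highest level with at least 20 UMIs was in Kupffer cells, at 80.0 (54.0 to 114), 75.1 (42.0 to 124) and 33.8 (4.1 to 122) CPM. Control myeloid progenitors had 141 UMIs in 70 of 340 cells, or 45.2 (38.0 to 53.3) CPM, which was 9.75 (7.83 to 12.1) times the level of all other cells. The genes that led this cluster were granule genes such as Mpo and Elane and the proliferation genes Top2a and Mki67, and Mpo was detected in 47.6%, 29.2% and 12.1% of its 340, 48 and 33 cells. Tnf there was 32.0 (13.8 to 63.1) CPM in HFD from 8 UMIs and 5.8 CPM in CCl4 from 1 UMI. The ratio of HFD to control, 0.709 (0.30 to 1.44), includes 1 and lay between 0.343 and 0.423 under 4 other settings. That of CCl4 to control was 0.128 (0.00323 to 0.727), 0.433 when cells over 10% mitochondrial UMIs were left out and 0.0731 as UMIs per cell, while under 4 settings the class held 0 Tnf UMIs in CCl4.

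Classical monocytes had a higher CPM of Tnf in both treated libraries than in control. They had 17, 102 and 27 UMIs in 12 of 205, 61 of 714 and 17 of 222 cells, or 19.0 (11.1 to 30.4), 47.5 (38.8 to 57.7) and 46.8 (30.8 to 68.0) CPM. HFD was 2.50 (1.49 to 4.47) and CCl4 2.46 (1.29 to 4.82) times control, and CCl4 to HFD was 0.984 (0.619 to 1.52). The median depth of these cells was 3970, 2840 and 2488.5 UMIs in control, HFD and CCl4. Cluster 8 held 85.9% of the control cells, while cluster 24 held 99.3% (HFD) and 100% (CCl4) of the others. The part of depth and cluster in the Tnf ratios was not tested. In this class 5 of the 10 cytokines could be tested for HFD against control as (CPM + 5) ratios and only Tnf was at or above 2, where 8.68% of all genes tested were. For CCl4 against control Tnf was at or above 2, as were 9.09% of all genes, and Il6 at or below 0.5, as were 13.5%. Dendritic cells had 2, 16 and 8 Tnf UMIs, with ratios to control of 7.01 (1.65 to 62.8) in HFD and 5.68 (1.13 to 54.9) in CCl4. These wide intervals come from the 2 control UMIs. T cells had 9.3, 10.99 and 7.6 CPM, and hepatocytes 0.25, 0.35 and 0.10 CPM.

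Il18, the Ifng-inducing partner of Il12, was the only cytokine of the 10 that had most of its UMIs in hepatocytes. Hepatocytes had 374, 432 and 354 UMIs, or 13.6 (12.2 to 15.03), 25.1 (22.8 to 27.6) and 17.3 (15.5 to 19.2) CPM, with 3 UMIs at most in a cell of any class. Against all other cells of the library, the ratio was 1.88 (1.55 to 2.27) in control, 1.10 (0.962 to 1.27) in HFD and 1.04 (0.879 to 1.24) in CCl4. So hepatocytes were above the remaining cells in control, but in HFD and CCl4 no difference was detected.

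This change came with higher Il18 in many non-parenchymal classes. In B cells Il18 was 5.7 (3.0 to 9.8) CPM in control, 21.6 (15.2 to 29.8) in HFD and 20.9 (15.02 to 28.4) in CCl4, with ratios to control of 3.78 (1.97 to 7.76) and 3.66 (1.93 to 7.45). In erythroid cells it was 6.9, 32.6 and 23.4 CPM, in endothelial cells 1.3, 15.7 and 14.6, in T cells 2.8, 18.9 and 15.4 and in NK cells 5.3, 19.4 and 14.1. In each of these classes both treated libraries were above control, and so were the hepatocyte markers given above for B cells: in T cells they summed to 21748, 63128 and 104445 CPM and in endothelial cells to 13511, 53939 and 108462. Their part in the Il18 levels was not tested. Most B cells were in cluster 11 in control, 30 in HFD and 36 in CCl4, and most erythroid cells in clusters 13, 33 and 35. In B cells, HFD against control, 3 cytokines could be tested as (CPM + 5) ratios. Il18 was at or above 2, as were 6.45% of all genes tested, and Tgfb1 at or below 0.5, as were 14.4%. Kupffer cells, a known source of Il18, had 50.7 (30.5 to 79.2) CPM in control from 19 UMIs, 45.1 (20.6 to 85.5) in HFD from 9 and 0 UMIs in CCl4, where 3 UMIs would be 50.7 CPM. Classical monocytes had 21.2, 34.9 and 27.7 CPM and cholangiocytes 24.3, 25.8 and 14.5.

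Ifng, the Th1 and NK effector cytokine, was shared between T cells and NK cells. NK cells had 665, 123 and 119 UMIs, or 221 (204 to 238), 149 (124 to 178) and 105 (86.9 to 126) CPM, in 30.2%, 21.01% and 16.8% of cells. T cells had 527, 486 and 273 UMIs, or 104 (95.7 to 114), 107 (97.6 to 117) and 64.7 (57.2 to 72.8) CPM, in 16.6%, 15.3% and 10.9% of cells. NK cells were thus above T cells in each library, by the most in control. Hepatocytes had an Ifng UMI in 0.242%, 0.204% and 0.114% of cells. Ncr1, an NK receptor, was detected in 61.0%, 44.4% and 25.2% of NK cells, and Cd3e in 72.1%, 49.2% and 40.4% of T cells, so the purity or depth of both classes differed between libraries. The NK class was also mixed. A control sub-cluster of 464 cells, 154 with Ifng, had 5 of 10 NK markers raised and Eomes in 1.94% of cells. The other, of 630 cells and 176 with Ifng, had 10 raised and Eomes in 55.9%. Sub-clusters with 5 raised markers also made up 200 of 338 NK cells in HFD and 125 of 535 in CCl4.

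Within T cells, clustered again in each library without the 10 cytokines, Ifng ranged from 0 to 332 CPM. The highest sub-cluster was 154 control cells with killer receptors (led by Klra5, Klra6 and Itga1), at 332 (274 to 399) CPM with 36.4% of cells positive. A control sub-cluster of 145 cells, named CD8 T cell-like from 3 raised markers that were not among its leading genes, led by Tnfsf4 and Glp1r and with the exhaustion receptor Havcr2 among its leading genes, had 182 (144 to 226) CPM. In HFD, a CD8 sub-cluster of 301 cells with Tox and Gzmk had 161 (133 to 194) CPM and a CD4 sub-cluster of 294 cells led by Il17a had 153 (125 to 184). In CCl4, a CD8 sub-cluster of 623 cells led by Gzmk had 98.9 (82.5 to 118) CPM and held 46.9% of the T cell Ifng. Sub-clusters led by Dapl1, Ccr7 and Lef1, genes of naive and central memory T cells, were near 0 in all libraries: 3 UMIs in 394 control cells, 7 in 414 HFD cells and 6 in 517 CCl4 cells. A control sub-cluster of 95 cells, left unnamed and with Il17a and Il17re among its leading genes, had 1 Ifng UMI but 9 Tnf UMIs (36.2 CPM, 16.6 to 68.8). Splitting T cells by a UMI of Cd4 or Cd8 instead gave CD8 cells of control 106 CPM of Ifng against 53.3 by sub-cluster. In HFD these values were 97.8 against 130, and in CCl4 83.7 against 98.9. Control was thus the lowest library by sub-cluster and the highest by this split.

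T cell Il4 lay mainly in a single control sub-cluster. 183 cells, led by Cd40lg, Mmp9 and Trgc1 and with Zbtb16, a transcription factor of innate-like T cells, in 16.9% of cells, held 50 of the 55 Il4 UMIs of control T cells, in 32 cells, at 107 (79.4 to 141) CPM. Cd4 was detected in 8.74% and Cd8a in 1.09% of these cells, and the sub-cluster matched no T cell subset of the marker lists. The list it did meet was that of classical monocytes, with 3 raised markers, 0 of them among its leading genes. A UMI of Cd3e, Cd3d, Cd3g or Trac was present in 97.8% of its cells. Ifng was detected in 58 of its cells and in 13 of the 32 with Il4. In HFD, a sub-cluster of 334 cells that also had Cd40lg, Mmp9 and Atp8a2 among its leading genes, behind the stress genes Hspa1a and Hspa1b, held 17 of 25 T cell Il4 UMIs at 22.2 (12.9 to 35.5) CPM. CCl4 T cells had 7 Il4 UMIs in all. Of the Il4-positive T cells, 37 in control, 23 in HFD and 7 in CCl4, 0 held 3 or more basophil markers.

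T cell Il10 also lay mainly in 1 place. Of 96 Il10 UMIs in control T cells, 73 were in 272 cells led by Maf and Cd4, at 118 (92.7 to 149) CPM in 42 cells. This sub-cluster was left unnamed, since more of its 10 leading genes were markers of another list than of the closest one. Maf, a transcription factor known to drive Il10, was detected in 79.8% of them, Cd4 in 39.0%, Cd8a in 18.8% and Foxp3 in 0%. Of the 42 cells with Il10, 9 also had Ifng, and 0 had Il4. The 87 control regulatory T cells, led by Foxp3, had 1 Il10 UMI. Foxp3 was detected in 21.8% of them and Gata3 in 43.7%. Of their leading genes, 2 were regulatory T cell markers and 2 were markers of another list, so the cells may be mixed. T cells of HFD and CCl4 had 11 and 13 Il10 UMIs, or 2.4 and 3.1 CPM against 19.0 in control.

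**Figure D4:**
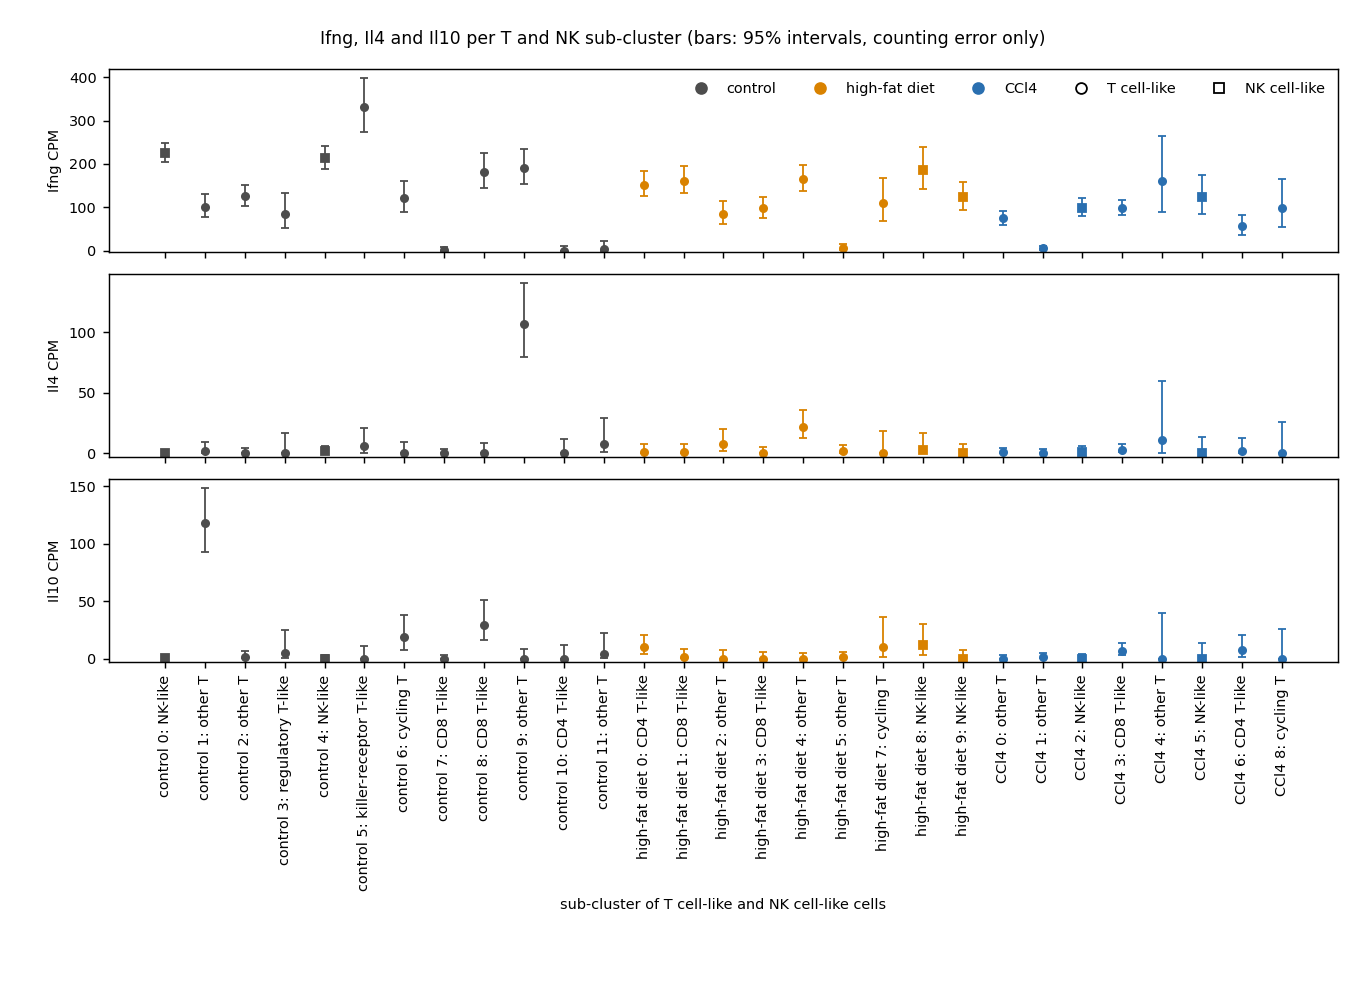
Ifng, Il4 and Il10 in each T cell and NK cell sub-cluster of the 3 libraries, in CPM; points are sub-clusters of single libraries and bars are 95% counting intervals, and "other T" marks T cell sub-clusters left without a subset name. Ifng is spread over many sub-clusters up to 332 CPM, whereas Il4 and Il10 each stand out in a single control sub-cluster, at 107 and 118 CPM.

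In myeloid cells Il10 was found mainly in HFD nonclassical monocytes. There 61 of 699 cells (8.73%) held 145 UMIs, at 82.6 (69.7 to 97.2) CPM, with 10 UMIs at most in a cell. Control and CCl4 nonclassical monocytes had 0 UMIs, but with only 23 and 15 cells a count of 0 allows up to 38.7 and 95.7 CPM. HFD was 2.13-fold above the control limit, a bound that takes UMIs as independent. Since the HFD UMIs lay in 8.73% of cells and control had 23 cells, a difference from control is not shown. No difference from CCl4 could be shown at this depth either. Of the 61 cells with Il10, 54 also had Il1b, which 83.8% of all HFD nonclassical monocytes had. Kupffer cells had 85.4 (58.4 to 121) CPM of Il10 in control and 80.1 (45.8 to 130) in HFD, from 32 and 16 UMIs in 10 and 6 cells. The 21 CCl4 Kupffer cells had 0 UMIs, a limit 1.68-fold below control if UMIs are taken as independent. Of the 32 control UMIs, 24 lay in 5 cells, so a difference from CCl4 is not shown. Of the Il10-positive Kupffer cells, 9 of 10 in control held 3 or more nonclassical monocyte markers, against 25 of the other 63, and 3 of 6 in HFD, against 9 of the other 69. The part of such cells in the Kupffer Il10 level was not tested. Classical monocytes had 3, 10 and 8 UMIs.

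Tgfb1 was detected in every class, and in most of them control had the highest level. Classical monocytes had 166, 240 and 66 UMIs, or 185 (158 to 216), 112 (98.1 to 127) and 114 (88.4 to 145) CPM. The ratios to control were 0.603 (0.493 to 0.74) in HFD and 0.617 (0.457 to 0.825) in CCl4. The median ratios of all genes in this class were 0.906 and 0.803, but they include hepatocyte genes and are only a rough reference. The hepatocyte markers in classical monocytes summed to 15514, 48435 and 82999 CPM in control, HFD and CCl4. The part of hepatocyte RNA in the Tgfb1 ratios of this and the other classes was not tested. B cells had 89.6 (77.8 to 102.8), 23.9 (17.2 to 32.5) and 25.5 (18.9 to 33.7) CPM, with ratios of 0.267 (0.186 to 0.375) and 0.285 (0.205 to 0.39). Endothelial cells had 151 (125 to 182), 73.6 (57.9 to 92.3) and 18.2 (8.75 to 33.5) CPM, with ratios of 0.486 (0.358 to 0.657) and 0.121 (0.0563 to 0.23). Control was the highest library in each of these classes without overlap of the intervals. CCl4 lay below HFD in endothelial cells, with a ratio of 0.248 (0.114 to 0.482), while monocytes (1.02) and B cells (1.07) did not differ beyond counting error.

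Plasmacytoid dendritic cells, mostly in cluster 19 in control and cluster 26 in HFD and CCl4, had 125, 63.8 and 51.9 CPM, conventional dendritic cells 117, 74.1 and 56.2, and Kupffer cells 115, 60.1 and 67.6. Control was again the highest, but the Kupffer ratio of HFD to control, 0.524 (0.251 to 1.01), includes 1. Progenitors had 173, 100 and 23.2 CPM from 540, 25 and 4 UMIs, with ratios to control of 0.578 (0.371 to 0.863), or 0.328 as UMIs per cell, and 0.134 (0.0364 to 0.345). The second ratio rests on 4 UMIs, lay between 0.340 and 0.799 under 4 other settings and was 0.0763 as UMIs per cell. NK cells had 106, 42.5 and 41.4 CPM and T cells 58.1, 28.4 and 19.7. Hepatocytes did not follow this order, at 2.29, 2.27 and 3.22 CPM, and fibroblasts, the matrix-producing target of Tgfb1, had 6, 11 and 2 UMIs.

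In endothelial cells, CCl4 against control, 4 of the 5 cytokines tested were at or below 0.5 as (CPM + 5) ratios (Il6, Il1b, Ifng and Tgfb1), where 31.5% of all genes tested were. They rest on few CCl4 molecules, 6 UMIs of Il1b and 10 of Tgfb1. In the control cells, beside the basophil and neutrophil markers given above for Il6 and Il1b, 6 of the 9 Ifng-positive endothelial cells held 3 or more T cell markers, against 11 of the other 147, and 5 held 3 or more NK cell markers, against 6. The part of these carried markers in the ratios was not tested. In the same cells HFD against control left 1 of 6 cytokines at or below 0.5 (Il6, against 12.0% of all genes) and CCl4 against HFD 2 of 5 (Il1b and Tgfb1, against 11.4%). The receptors through which these cytokines act were low as well: of 16 receptor genes tested for CCl4 against control, 11 were at or below 0.5 and 1, Il1rap, was at or above 2. Their median log2 ratio was -1.23, against -0.53 over all genes. The 11 included Il1r1, Il6st, Ifngr1, Tgfbr1 and Tgfbr2, which with Il1rap were chosen for naming after their values were seen. In B cells, CCl4 against control, 10 of 15 receptors were at or below 0.5, where 22.7% of all genes were, and 1, Il1rap, was at or above 2, with a median log2 ratio of -1.23 against -0.41 over all genes. Il1rap was at or above 2 in this contrast also in cholangiocytes, erythroid cells and plasmacytoid dendritic cells, but not in classical monocytes or conventional dendritic cells. Of the receptors listed, it was the highest in hepatocytes of HFD (44.5 CPM) and CCl4 (80.0 CPM). The part of hepatocyte RNA in the Il1rap ratios was not tested.

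The remaining calls on the (CPM + 5) ratio were few. For CCl4 against control, B cells had Il18 at or above 2 (6.32% of all genes) and Il1b and Tgfb1 at or below 0.5 (22.7%), plasmacytoid dendritic cells had Il1b and Tgfb1 at or below 0.5 (23.2%), and cholangiocytes had Il1b at or below 0.5 (14.9%). For CCl4 against HFD, Il1b was at or below 0.5 in B cells (2.72% of all genes), classical monocytes (4.21%, together with Il6) and conventional dendritic cells (4.66%). For HFD against control, Il18 was at or above 2 in erythroid cells (18.6%). Among these calls Il1b was the cytokine most often low in CCl4, including 3 classes where few other genes were low against HFD. The filter used the UMIs of both libraries together, so a gene could pass through its higher library alone. This favours a call for such a gene. Il1b also had the most UMIs of the cytokines, and the number of classes in which each could be tested was not compared. Some of these calls rest on few molecules or cells. B cells had 22 Il1b UMIs in HFD and still fewer in CCl4. In control cholangiocytes, 49 of 54 Il1b UMIs lay in 5 cells. Of the 10 positive cells, 4 held 3 or more neutrophil markers, against 2 of the other 105, as did all 4 positive CCl4 cholangiocytes. The part of such cells in the calls was not tested.

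**Figure D5:**
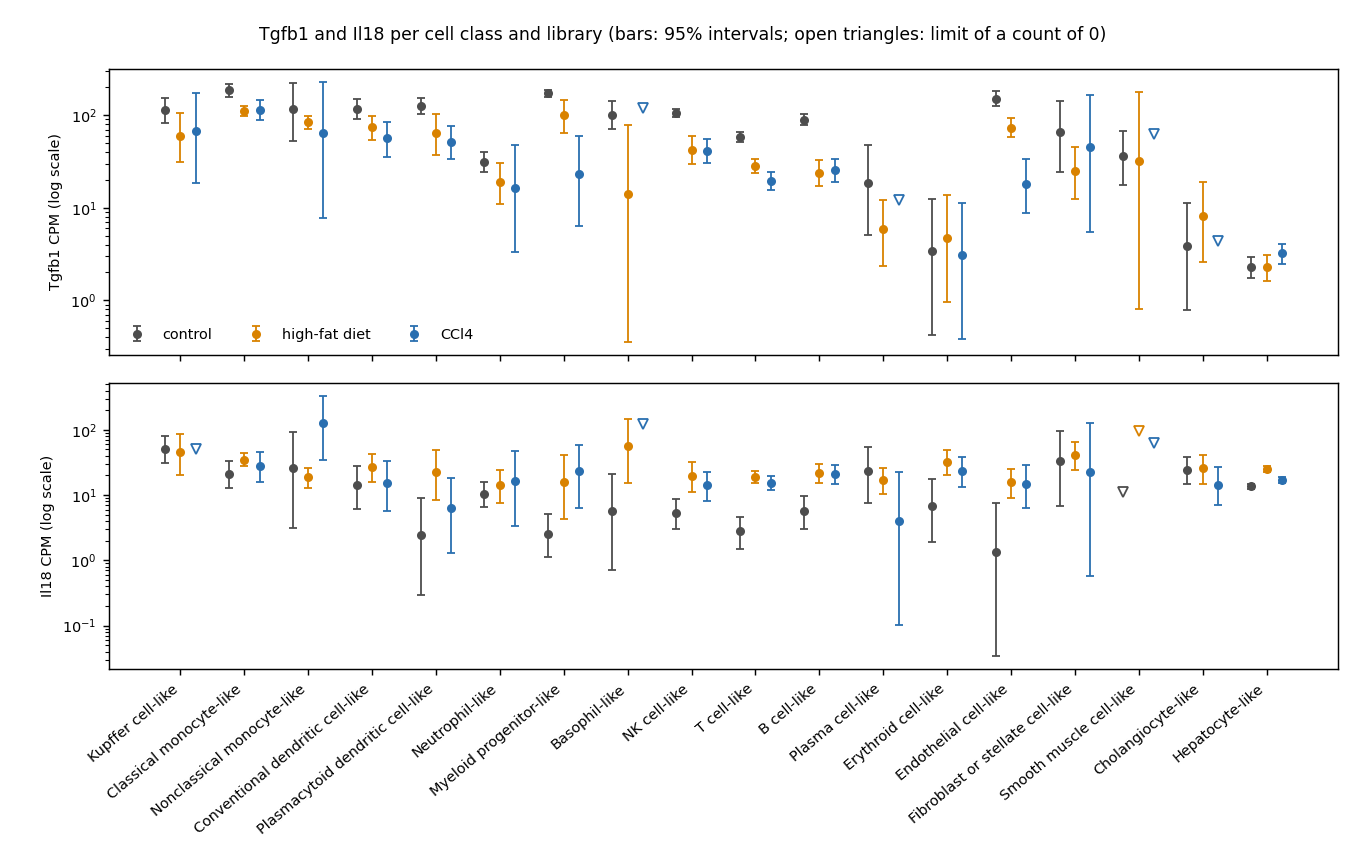
Tgfb1 and Il18 in 18 cell classes and 3 libraries, as CPM on a log axis; points are single libraries, bars are 95% counting intervals and open triangles give the limit that a count of 0 allows. Tgfb1 in B cells lies at 89.6 in control against 23.9 (HFD) and 25.5 (CCl4), and Il18 in the same cells at 5.7 against 21.6 and 20.9.

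The genes most like each cytokine were taken by Pearson correlation of log2(CPM + 1) over 42 combinations of class and library of at least 50 cells, among 13927 genes. These points share libraries, depth and free RNA, so the correlations only describe these data. Basophils reached 50 cells in control alone (92 cells) and nonclassical monocytes in HFD alone (699 cells). A likeness to genes of either class thus rests on 1 point of that class and shows no change together across its libraries. Mcpt8, Cd200r3, Fcer1a and Ear2 were also markers used to name these classes. Il6 was most like Slc7a8 (r = 0.80), Npl (0.79) and the basophil protease Mcpt8 (0.77), and Il4 was most like Cd200r3 (0.86), Fcer1a (0.84) and Mcpt8 (0.84), all basophil markers. Il1b was most like Clec7a and Lst1 (0.95 each) and Ccl6 (0.94), which are myeloid genes. Il1a was most like Gatm (0.87), Mrc1 (0.85) and Lgmn (0.85), of which Mrc1 is the mannose receptor of macrophages and liver endothelium. Tnf was most like the chemokine Ccl3 (0.85), Fyb (0.84) and Arl4c (0.84). Ifng was most like the T cell receptor gene Trbc1 (0.90), followed by Cxcr6 and Il2rb. Il10 was most like Ms4a6d (0.80), followed by Ear2 and Cx3cr1, Il18 was most like Abcc3 (0.86) and Tgfb1 was most like Aim2 (0.92). Il13, with 80 UMIs, was below the minimum of 100.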

How the data were processed

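Counts of the 10 cytokines were read from 3 deposited 10x matrices, 1 per group. Per the file headers and the labels, the authors made these raw UMI counts with 10x 3′ chemistry and Cell Ranger 7.2.0 and did not normalise them. The genome build is named differently by the study's methods and by the submitters' processing notes (GRCm39), so reference positions are given only as GRCm38. The features and barcodes files name genes and cells. Barcodes under 500 UMIs or 200 genes, or above 30% mitochondrial UMIs, were dropped (36945 of 36990 stayed, with 6 Scrublet calls removed, too few for a working doublet call). Libraries were clustered together with scanpy 1.11.5 (2000 variable genes without the 10 cytokines, 30 components, 15 neighbours, Leiden of igraph 0.11.9 at resolution 1). A cluster was named from 3 or more genes of a marker list among its 10 leading genes, or otherwise from 3 or more raised markers. Raised markers were detected in at least 10% of cells, with a (CPM + 5) at least 1.5 times that of the median of the other clusters. Within T and NK cells the reference was all other cells instead. T and NK cells were clustered again within each library. UMIs were summed per class and library and divided by the class total (CPM). Intervals at 95% were exact Poisson for CPM, Clopper-Pearson for shares and exact conditional for ratios (scipy 1.17.1). They cover counting error only. Shares were also thinned to 1000 UMIs per cell. A count of 0 was taken to allow up to 3 counts. This fixed limit is lower than the upper end of the exact Poisson interval for a count of 0, so bounds against it are somewhat larger than by that interval. For pathway lists, (CPM + 5) ratios of at least 2 or at most 0.5 were counted among genes with at least 20 UMIs over both libraries in classes of at least 100 cells, beside the same share of all such genes. Named list genes are those with the highest CPM of their list in the leading class of a cytokine, or past the fold there, and the 3 genes most correlated with each cytokine. With 1 library per group no test and no p-value was computed. The scripts were tested on simulated data. The members and lists were chosen with earlier results of these data known. The alternatives are named in the closing section.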

Additional observations from a re-analysis of the deposited data

How the results depend on the processing

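12 processing alternatives were run. The 17 combinations of cytokine and library led by the same class as overall ranged from 14 to 18, the 23 ratios of a leading class to other cells above 1 from 19 to 26, and the 12 of 22 ratios between libraries of at least 2 or at most 0.5 from 9 to 15, except with each library clustered on its own, which left 5. A ratio was skipped where a class had no cells in a library or gave no finite value. Under that setting 41 single values stayed within their counting interval and 20 left it, against 70 and 12 at Leiden resolution 2.0. Fewer ratios could thus be computed there, and the 5 may be out of fewer than 22. Of the thinned shares above that of hepatocytes, 25 stayed 25. The 239 list genes past the fold were 279 with a pseudocount of 1 and 168 with at least 50 UMIs. Of 573 single values under an alternative, 446 stayed within their counting interval, 124 left it, 59 moved by more than 1.5 times and 3 changed direction. Il1a in Kupffer cells, HFD to control, was 1.06 with the cytokines allowed among the clustering genes (0.423 otherwise), Il1b in neutrophils, HFD to control, was 1.03 with at least 2000 UMIs per cell (0.871 otherwise), and Tgfb1 in progenitors, CCl4 to HFD, was 1.27 without the highest 8% of Scrublet scores (0.232 otherwise). The cause was not tested. Depth limits small classes, such as CCl4 basophils (12 cells), CCl4 Kupffer cells (21) and control and CCl4 nonclassical monocytes (23 and 15). No paired analysis was possible because each group has 1 library.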
